A study of Homo sapiens with 12 samples.

Results

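Transcripts of 10 chromatin regulators linked to myeloid neoplasms were followed on 12 one-colour arrays of HEL cells: ASXL1, EZH2, EED, SUZ12, DNMT1, DNMT3A, DNMT3B, PRMT5, CBX5 and KMT2A. The genes were chosen by name, with earlier results of these data known. Every probe set that the platform annotation gives to one of them alone was kept, which gave 19 probe sets out of 22406 tested. All 10 genes had at least 1 probe set, 6 of them had 2 or more, and no filter on low values was applied.

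EZH2, EED and SUZ12 are the catalytic and structural subunits of Polycomb repressive complex 2 (PRC2), which places a repressive methyl mark on histone H3, and EZH2 or its partners are lost in part of the myeloid neoplasms. ASXL1 is a Polycomb-associated protein that works with the deubiquitinase BAP1, and KMT2A (MLL) is a histone H3 methyltransferase that opposes Polycomb repression and is rearranged in acute leukaemias. DNMT3A and DNMT3B write new DNA methylation and DNMT1 copies it after replication. PRMT5, an arginine methyltransferase, is a known substrate of mutant JAK2, and CBX5 encodes HP1 alpha, a heterochromatin protein that JAK2 is known to displace from chromatin by phosphorylating histone H3.

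HEL is an established human acute myeloid leukaemia line of erythroid and megakaryocytic character with the JAK2 mutation V617F, homozygous per the series' design text, so all 4 groups carried mutant JAK2. Cells were infected with lentivirus in a puromycin-selectable pLKO vector. Each of the groups GFP (a vector control that some labels call a hairpin), Luc (a luciferase hairpin), Jak2-9 and Jak2-10 (independent hairpins against JAK2) held 3 arrays. The labels give neither the time after infection nor the origin of the replicates. Separate cultures are not named, and each p-value below therefore rests on array-to-array spread that may be technical only.

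JAK2 itself was lower on all 6 knockdown arrays than on all 6 control arrays at both of its probe sets. At the brighter one (205842_s_at) both hairpins together left 63.1% of control (95% interval 53.5% to 74.3%; limma, adjusted p = 0.0026). Jak2-9 alone passed at both probe sets (adjusted p = 0.00569 and 0.0412), and Jak2-10 alone at neither (67.0% of control, adjusted p = 0.0556, and 64.5%, 0.329). At 205841_at the log2 intensities were 7.11, 8.35 and 8.40 with Jak2-9, 8.19, 8.22 and 8.06 with Jak2-10, and 8.68 to 8.90 in controls. The fit shares its estimate of the spread across the groups, and the SD there was 0.73 with Jak2-9 and 0.09 with Jak2-10. The Jak2-10 p-value is therefore no measure of a weaker knockdown. Among markers of HEL cells, the brightest probe sets of HBG1 (at least 25267), HBE1 (2659), KLF1 (1187), ITGA2B (1159) and GATA1 (807) were bright on every array. HBZ and EPOR were lower, at intensities up to 584 and 279, and a dim probe set each of HBE1 and ITGA2B stayed at or under 27.4. The T cell, B cell, monocyte and fibroblast genes CD3D, CD3E, MS4A1, CD79A, CD14, CSF1R, COL1A1 and COL1A2 stayed at or under 79.5, the highest being CD79A. Jak2-9 replicate 1 stood apart: correlations among the Jak2-9 arrays reached down to 0.985, against 0.995 or more within each other group. Its log2 gap between the 3' and 5' actin control probe sets, a measure of RNA integrity, was 0.42 against 0.13 and 0.15 on the other Jak2-9 arrays and 0.19 to 0.38 on the controls. The control probe set for Alu repeats also moved with the groups, at 14.50 to 14.68 on the log2 scale in controls and 13.94 to 14.15 in knockdown arrays.

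Few of the 19 probe sets changed with JAK2 knockdown. With both hairpins against both controls 1 fell, at EZH2, and none rose (limma, adjusted p under 0.05 over 22406 probe sets). Over all probe sets 2.51% fell and 0.629% rose in that comparison, so 1 of 19 is near the background. With Jak2-9 alone 2 fell, at EZH2 and SUZ12, and none rose, against 2.62% and 1.64% of all probe sets. Centring each array on its median turned the split over all probe sets from 563 that fell and 141 that rose to 526 and 261 with both hairpins, and from 588 and 368 to 580 and 856 with Jak2-9. With Jak2-10 alone none passed, against 1.29% of all probe sets that fell and 0.0848% that rose. At unadjusted p under 0.05, 2 of the 19 were lower with Jak2-10, against 4.29% of all probe sets, and none was higher, against 2.81%.

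At unadjusted p under 0.05, 7 of the 19 were lower with both hairpins together, against 6.99% of all probe sets, and none was higher, against 8.98%. With Jak2-9 7 were lower, against 8.63%, and 1 (PRMT5) was higher, against 13.5%.

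The direction of the small differences leaned downwards. Of the 19 probe sets 16 lay below 0 with both hairpins together, 16 with Jak2-9 and 17 with Jak2-10, against 39.6%, 39.9% and 43.7% of all probe sets. The median log2 difference was -0.18 over the members and 0.03 over all probe sets with both hairpins, -0.20 and 0.04 with Jak2-9, and -0.13 and 0.02 with Jak2-10. Both hairpins were set against the same 6 control arrays, and the probe sets of 1 gene share their transcript, so these counts are a description. Jak2-9 replicate 1 gave the lowest of the 12 values at 12 of the 19 probe sets, against 20.6% of all probe sets, and the highest at 2, against 30.9%.

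**Figure D1:**
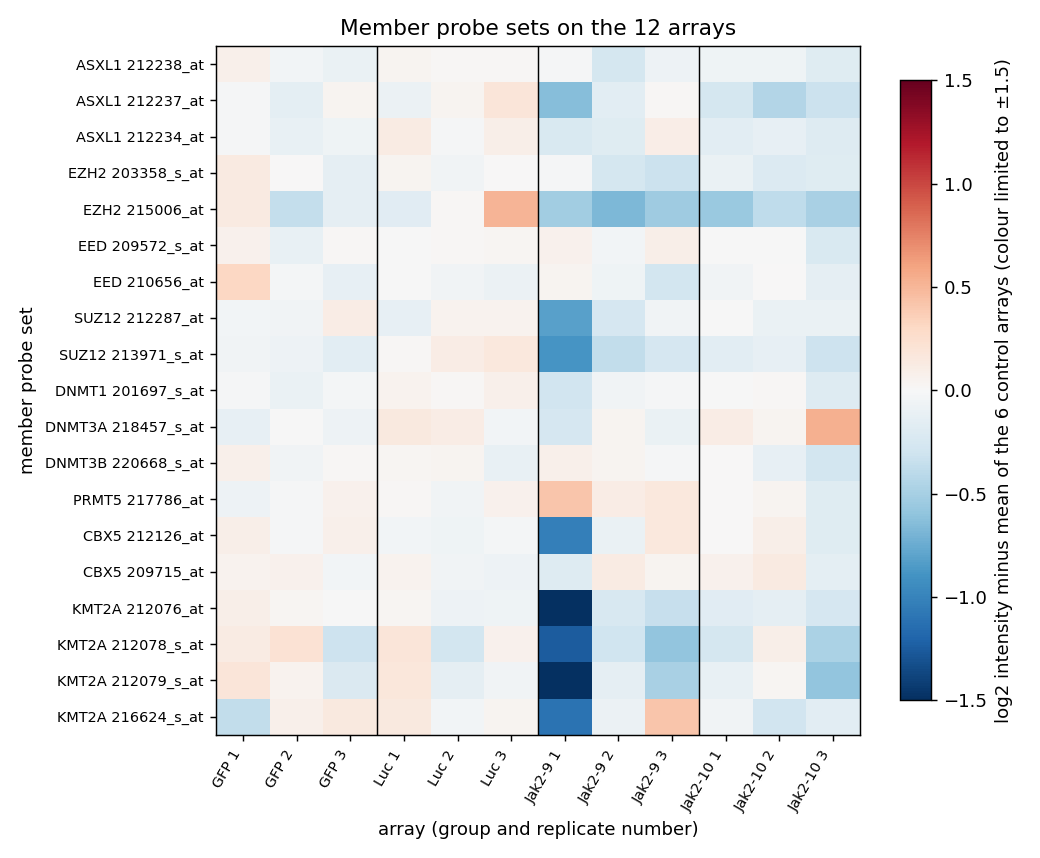
Log2 intensity of the 19 member probe sets (rows) on the 12 arrays (columns, group and replicate number), each as the difference from the mean of the 6 control arrays (blue lower, red higher). Jak2-9 replicate 1 is the darkest column, with KMT2A 212076_at at 6.58 against 8.72 to 8.88 on the controls, and EZH2 215006_at is lower on all 6 knockdown arrays.

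**Figure D2:**
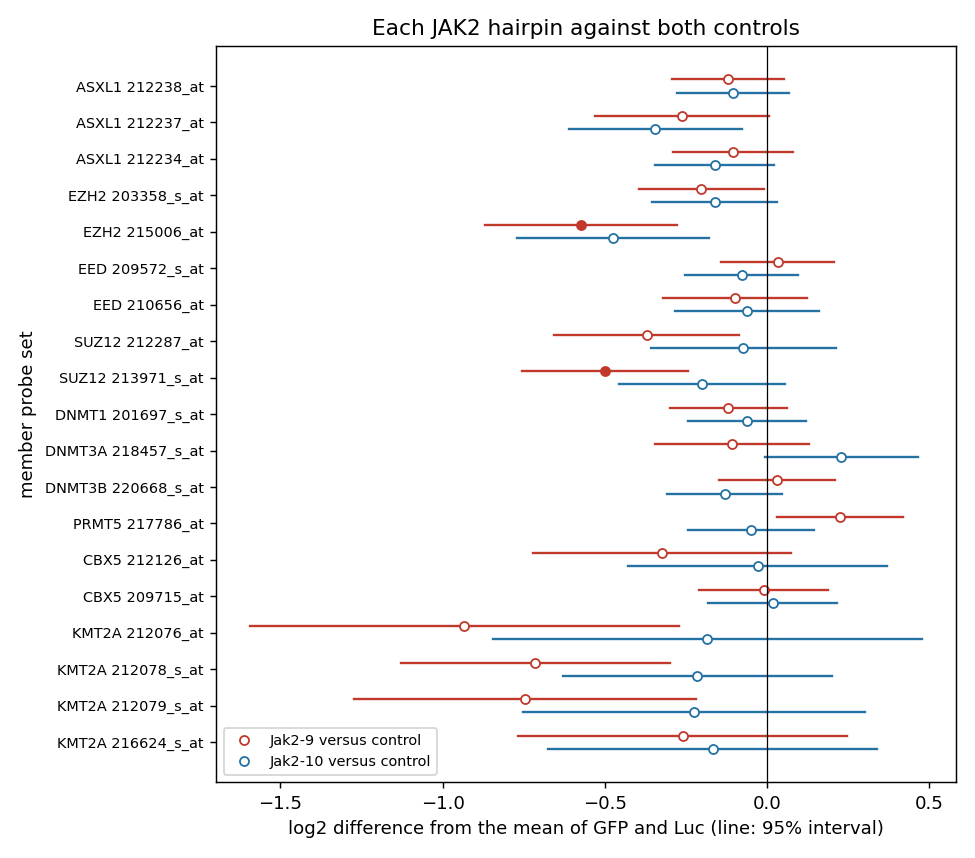
Log2 difference of Jak2-9 (red) and Jak2-10 (blue) from the mean of both controls for each member probe set, with the 95% interval as a line and filled points where the adjusted p is under 0.05. The filled points are EZH2 215006_at and SUZ12 213971_s_at with Jak2-9, and no Jak2-10 point is filled.

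Of the PRC2 subunits, EZH2 and SUZ12 each had 1 probe set that fell with Jak2-9, and EED had none; differences between the subunits were not tested. Their promoters are shown because the calls among the members fell within this 1 complex. Each sequence is the 250 bases before the annotated start furthest upstream, read from RefSeq (GRCh38.p14), at chr7:148884292-148884541 on the minus strand for EZH2, chr17:31936757-31937006 on the plus strand for SUZ12 and chr11:86244503-86244752 on the plus strand for EED. Capitals mark TTCNNNGAA, the palindromic motif that STAT factors bind downstream of JAK2, which reads the same on both strands; other motifs were not searched.
EZH2: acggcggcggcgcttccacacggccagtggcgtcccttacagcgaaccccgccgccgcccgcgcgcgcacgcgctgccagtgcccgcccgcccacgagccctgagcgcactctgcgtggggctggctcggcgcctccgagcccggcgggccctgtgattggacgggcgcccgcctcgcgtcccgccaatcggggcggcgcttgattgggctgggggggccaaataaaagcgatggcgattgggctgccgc
SUZ12: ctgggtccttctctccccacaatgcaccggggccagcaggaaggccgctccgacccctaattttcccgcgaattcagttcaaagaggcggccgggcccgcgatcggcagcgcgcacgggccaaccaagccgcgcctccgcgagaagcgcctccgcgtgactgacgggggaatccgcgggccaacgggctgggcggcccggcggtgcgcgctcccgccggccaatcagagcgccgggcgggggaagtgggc
EED: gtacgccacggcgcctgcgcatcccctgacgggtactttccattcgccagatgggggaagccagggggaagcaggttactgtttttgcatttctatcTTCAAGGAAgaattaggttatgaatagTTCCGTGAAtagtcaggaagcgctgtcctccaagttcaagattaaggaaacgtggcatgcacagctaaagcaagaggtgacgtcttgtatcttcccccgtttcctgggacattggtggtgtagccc
EED held 2 matches, starting 153 and 126 bases before the start, and EZH2 and SUZ12 held none. Of 35116 windows of 250 bases before the starts read from RefSeq, 6.57% held at least 1 match and 0.356% held 2 or more. That background kept every start listed, not only the one furthest upstream for each gene. Among the members, taking 1 window each, 2 of 10 held a match, the other being ASXL1. A match is a run of letters, not a measured binding site.

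EZH2 was read by probe sets 203358_s_at and 215006_at. At 215006_at the log2 intensities in replicates 1, 2 and 3 were 5.70, 5.21 and 5.44 in GFP cells and 5.40, 5.59 and 6.08 in Luc cells. They were 5.05, 4.90 and 5.04 with Jak2-9 and 5.01, 5.19 and 5.08 with Jak2-10. No knockdown array reached the lowest control array, a separation seen at 2.13% of all probe sets, and the controls were more spread than the knockdown arrays. The transcript signal fell to 69.6% of control with both hairpins (95% interval 58.9% to 82.2%; log2 difference -0.52 ± 0.11, SE; limma, adjusted p = 0.0175) and to 67.2% with Jak2-9 (adjusted p = 0.0323). Jak2-10 left 72.0% of control (58.7% to 88.3%) without passing (adjusted p = 0.183). Mean intensities at this probe set were 44.1 and 52.7 in the GFP and Luc groups, near the array medians of 42.8 to 46.4, and no detection calls were used.

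The fall at EZH2 215006_at depended on the controls. With both hairpins the call was lost with GFP alone as control (-0.40, adjusted p = 0.289) and without GFP replicate 1 (0.0575) or Jak2-10 replicate 1 (0.0574). The Jak2-9 call was lost on leaving out replicate 1 or 3 of GFP (adjusted p = 0.0715 and 0.0592), replicate 1 or 2 of Jak2-9 (0.0555 and 0.0685) or replicate 2 of Luc (0.0538). The part of the Alu signal, which was lower on the same 6 arrays, in this result was not tested.

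The brighter EZH2 probe set, 203358_s_at, differed less. Its log2 intensities were 8.80, 8.67 and 8.53 (GFP), 8.71, 8.62 and 8.68 (Luc), 8.65, 8.41 and 8.35 (Jak2-9), and 8.57, 8.47 and 8.48 (Jak2-10). The groups overlapped, with 2 arrays of each hairpin below every control. It stood at 88.2% of control with both hairpins (79.0% to 98.4%), which did not pass (limma, adjusted p = 0.238). With array weights it passed (-0.22, adjusted p = 0.0406), and so did the mean of both EZH2 probe sets (-0.35, adjusted p = 0.0251). Within each array the gap between the EZH2 probe sets was wider in knockdown cells by -0.34 on the log2 scale (SD 0.29 in controls and 0.13 in knockdown arrays, n = 6 each), with all 6 knockdown arrays below the control mean. An exact two-sided permutation test gave p = 0.0195 for that gap, or 0.176 after adjustment over the 9 probe set pairs of the members. None of the 9 pairs passed after adjustment, and 1, that of EZH2, had an unadjusted p under 0.05.

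SUZ12, the subunit that holds PRC2 together, was lower mainly with Jak2-9. At 213971_s_at the log2 intensities were 9.28, 9.25 and 9.17 (GFP), 9.34, 9.45 and 9.49 (Luc), 8.45, 8.96 and 9.08 (Jak2-9), and 9.17, 9.20 and 9.02 (Jak2-10). All 3 Jak2-9 arrays lay below every control, as 4.71% of all probe sets did, and replicate 1 lay far below the other Jak2-9 arrays. The signal fell to 70.7% of control with Jak2-9 (59.3% to 84.4%; log2 difference -0.50 ± 0.12, SE; limma, adjusted p = 0.0309). Jak2-10 left 87.0% (72.9% to 104%; adjusted p = 0.859), and both hairpins together 78.5% (0.0758). Without Jak2-9 replicate 1 the Jak2-9 difference shrank to -0.31 (adjusted p = 0.0943), a change of over 1.5 times, while both hairpins together then passed (-0.25, adjusted p = 0.0432). That comparison also passed without Jak2-9 replicate 3 (-0.41, adjusted p = 0.0242). The Jak2-9 call was also lost without GFP replicate 1 (0.0703), GFP replicate 2 (0.0680), Luc replicate 2 (0.0698) or Luc replicate 3 (0.0655), and with GFP alone as control (-0.40, adjusted p = 0.180).

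The brighter SUZ12 probe set, 212287_at, gave 10.79, 10.78 and 10.95 (GFP), 10.71, 10.89 and 10.88 (Luc), 10.02, 10.59 and 10.79 (Jak2-9), and 10.83, 10.73 and 10.73 (Jak2-10). Only Jak2-9 replicates 1 and 2 lay below all controls, and Jak2-10 lay within their range. Its log2 difference with Jak2-9 was -0.37 (limma, adjusted p = 0.127), or -0.15 (0.566) without replicate 1 and -0.53 (0.0279) without replicate 3. SUZ12 has a near-identical partial copy, the pseudogene SUZ12P1, and whether these probe sets also read it was not tested.

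EED, the subunit that binds the methyl mark, was close to control. At 209572_s_at the group means were 10.57 ± 0.09 (GFP), 10.60 ± 0.02 (Luc), 10.62 ± 0.07 (Jak2-9) and 10.51 ± 0.13 (Jak2-10) on the log2 scale (SD, n = 3 each). Both hairpins together left 98.5% of control, with an interval of 89.2% to 109%, so a fall as large as that at EZH2 215006_at lies outside it. The dim probe set 210656_at, at mean intensities of 19.3 to 21.5 in the 4 groups, was at 94.6% (83.4% to 107%).

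**Figure D3:**
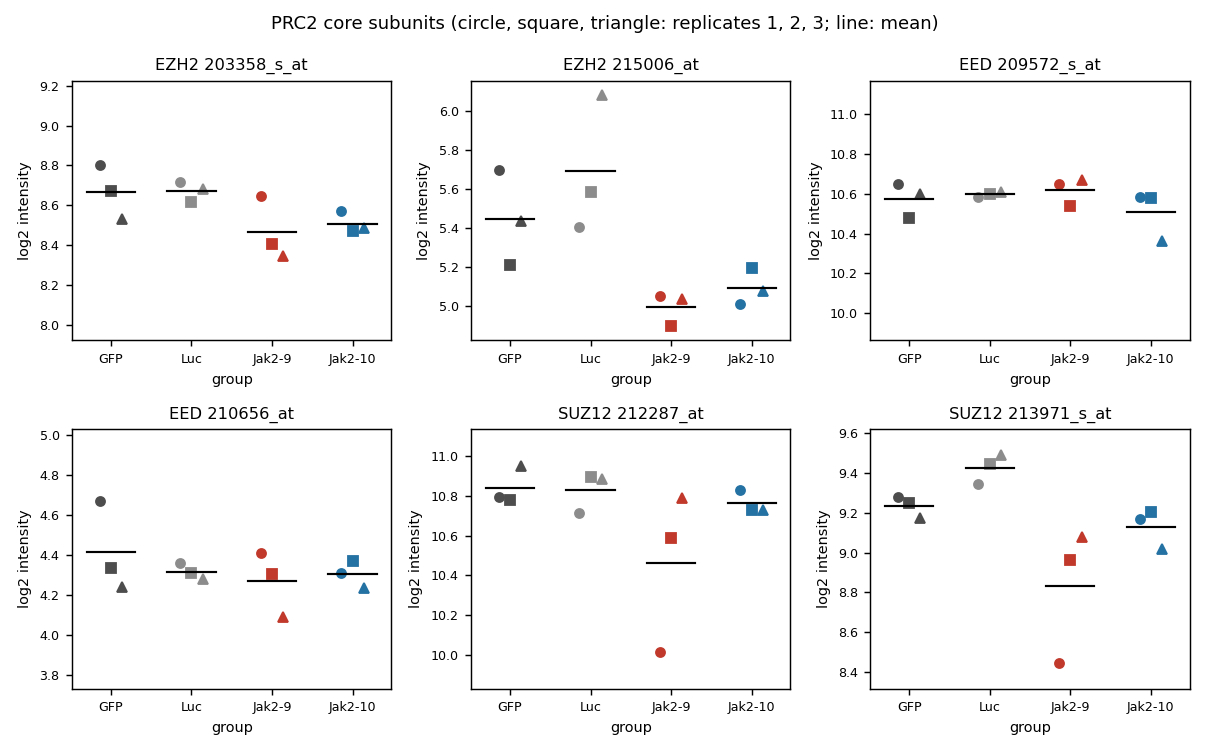
Log2 intensity (vertical axis) of the PRC2 core subunits EZH2, EED and SUZ12 by group, 1 panel per probe set and 1 point per array, with the group mean as a line. EZH2 215006_at separates the 6 knockdown from the 6 control arrays, SUZ12 213971_s_at separates the 3 Jak2-9 arrays from the controls, and EED 209572_s_at overlaps in all 4 groups.

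KMT2A had 4 probe sets, all with means below control for both hairpins and none past the threshold. At 212076_at the log2 intensities were 8.88, 8.82 and 8.79 (GFP), 8.83, 8.72 and 8.73 (Luc), 6.58, 8.55 and 8.45 (Jak2-9), and 8.63, 8.66 and 8.54 (Jak2-10). All 6 knockdown arrays lay below all 6 controls, as at 2 of the 19 member probe sets and 2.13% of all probe sets. The margin was small except on Jak2-9 replicate 1, where the log2 gap to the mean of its group's other arrays was -1.93. With both hairpins the difference was -0.56 ± 0.25 (SE; limma, adjusted p = 0.297). Without Jak2-9 replicate 1 it was smaller but passed, at -0.24 (adjusted p = 0.0456). The interval of the Jak2-9 difference, from 33.1% to 82.8% of control, was wide for the same reason: the SD was 1.11 in that group and 0.05 to 0.06 in the others.

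The remaining KMT2A probe sets also had Jak2-9 replicate 1 as the lowest array. At 212078_s_at Jak2-9 was at 61.0% of control (45.8% to 81.3%; limma, adjusted p = 0.0533), with replicate values of 7.16, 8.11 and 7.82 against 8.10 to 8.62 in controls. That value came under 0.05 with median centring (0.0371), quantile normalization (0.0362), the dimmest 30% left out (0.0466) or an intensity trend (0.0360), and on leaving out replicate 3 of GFP (0.0464), or replicate 2 (0.0212) or 3 (0.0497) of Jak2-9. Without Jak2-9 replicate 1 its log2 difference went from -0.71 to -0.45 (adjusted p = 0.237). At 212079_s_at Jak2-9 was at -0.74 (adjusted p = 0.10), or -0.31 (0.437) without replicate 1, and at 216624_s_at it went from -0.26 to 0.16 (0.716). With Jak2-10 the 4 probe sets stood between 85.5% and 89.0% of control, and none had an unadjusted p under 0.05. Those p-values rest on a spread shared across the groups, Jak2-9 replicate 1 included. At 212076_at the Jak2-10 interval was 55.7% to 139% of control, with an SD of 0.06 in that group and 1.11 in Jak2-9. Single arrays moved these values: without Jak2-10 replicate 3 the log2 difference of KMT2A 212079_s_at was -0.04 in place of -0.23 and that of 212078_s_at -0.08 in place of -0.22. Without Jak2-10 replicate 2 they were -0.35 and -0.37, and that of 216624_s_at was -0.11 in place of -0.17.

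ASXL1 was read by 3 probe sets, each below control with both hairpins and none past the threshold. At 212237_at the log2 intensities were 9.11, 8.98 and 9.17 (GFP), 9.04, 9.17 and 9.32 (Luc), 8.49, 8.97 and 9.14 (Jak2-9), and 8.87, 8.69 and 8.80 (Jak2-10). The 3 Jak2-10 arrays lay below every control, as they did at 212234_at, and as 3.31% of all probe sets did. With Jak2-10 the signal was at 78.8% of control (65.5% to 94.8%; limma, unadjusted p = 0.0155, adjusted p = 0.422). Without Jak2-9 replicate 1, which leaves the Jak2-10 arrays as they are and lowers the shared estimate of the spread, the adjusted p was 0.0495. The other ASXL1 probe sets, 212238_at and 212234_at, stood at 92.5% (83.8% to 102%) and 91.2% (82.2% to 101%) with both hairpins.

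**Figure D4:**
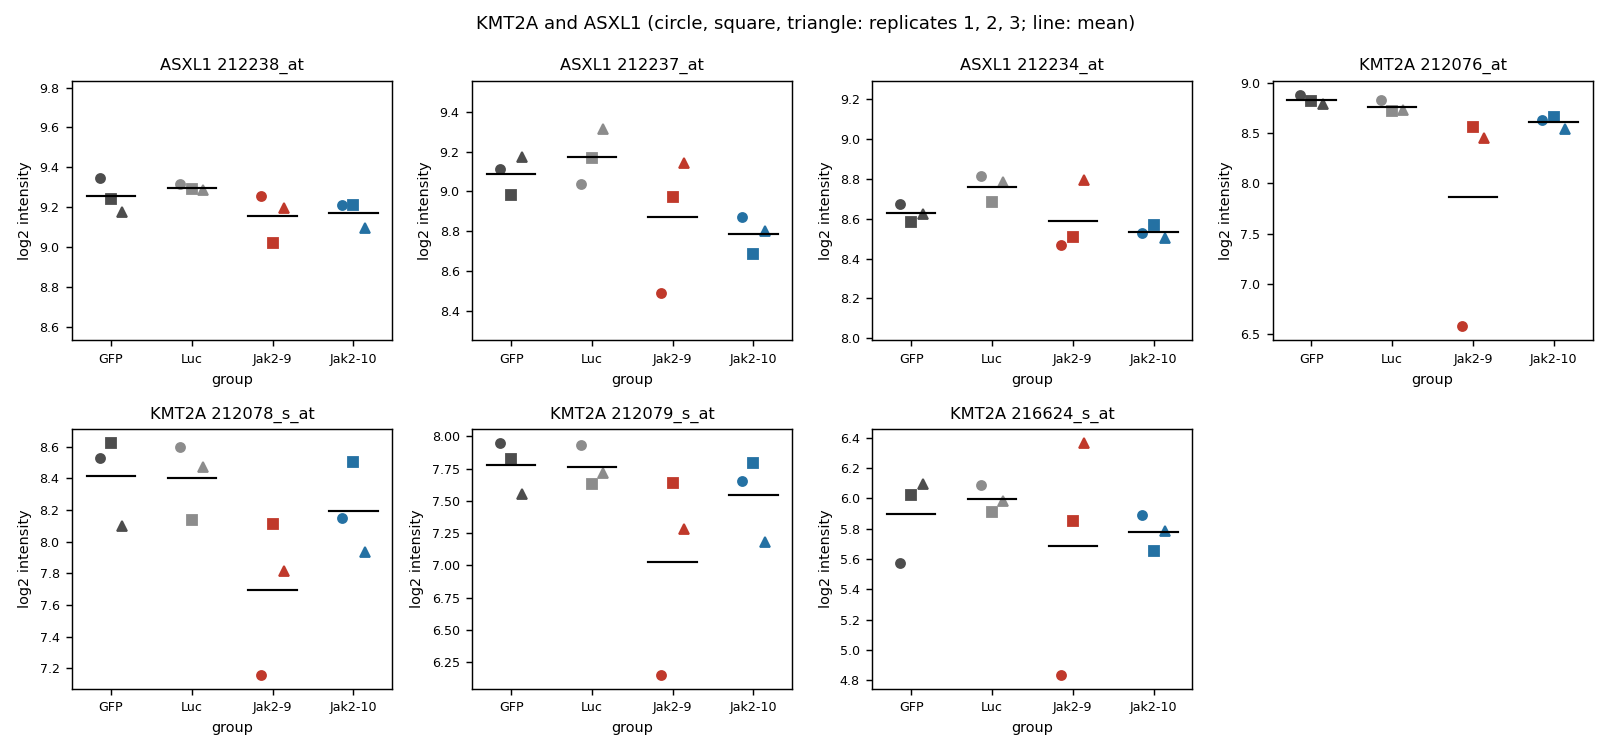
Log2 intensity (vertical axis) of the 3 ASXL1 and 4 KMT2A probe sets by group, with 1 point per array and the group mean as a line; vertical scales differ between panels. In the KMT2A panels the circle of Jak2-9 (replicate 1) lies below all other arrays, at 6.58 for 212076_at.

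The DNA methyltransferases had 1 probe set each, and none passed. DNMT1, the maintenance enzyme, had log2 means of 11.83 ± 0.05 (GFP), 11.93 ± 0.03 (Luc), 11.76 ± 0.14 (Jak2-9) and 11.82 ± 0.11 (Jak2-10; SD, n = 3 each), and both hairpins left 94.0% of control (84.8% to 104%). DNMT3B stood at 96.6% (87.4% to 107%), with group means between 10.43 and 10.59. The intervals of both exclude a fall to 69.6%, the size read at EZH2 215006_at. They include 88.2%, the value at the brighter EZH2 probe set 203358_s_at. DNMT3A was dim, with log2 intensities of 5.72, 5.83 and 5.76 (GFP), 5.98, 5.95 and 5.80 (Luc), 5.58, 5.88 and 5.74 (Jak2-9), and 5.96, 5.88 and 6.37 (Jak2-10). The hairpins lay on opposite sides of control there, at 92.8% with Jak2-9 and 117% with Jak2-10, and Jak2-10 replicate 3 was the highest array. Without it the log2 difference of DNMT3A with Jak2-10 was 0.08 in place of 0.23 (limma, adjusted p = 0.973 and 0.726).

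PRMT5, the arginine methyltransferase, was the member with the largest positive difference for Jak2-9. Its log2 intensities were 10.35, 10.40 and 10.49 (GFP), 10.45, 10.37 and 10.49 (Luc), 10.84, 10.53 and 10.58 (Jak2-9), and 10.42, 10.47 and 10.24 (Jak2-10). All 3 Jak2-9 arrays lay above every control, as 7.48% of all probe sets did, and Jak2-10 overlapped the controls. With Jak2-9 it was at 117% of control (102% to 134%; limma, unadjusted p = 0.0260, adjusted p = 0.166), and at 0.13 on the log2 scale in place of 0.22 (adjusted p = 0.598) without replicate 1. Jak2-10 left 96.7% (84.6% to 111%).

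CBX5, which encodes HP1 alpha, showed no difference at 209715_at beyond its spread. The log2 means there were 8.68 ± 0.06 (GFP), 8.63 ± 0.07 (Luc), 8.64 ± 0.17 (Jak2-9) and 8.67 ± 0.14 (Jak2-10; SD, n = 3 each), and both hairpins together stood at 100% of control (89.6% to 112%). At 212126_at Jak2-9 replicate 1 read 8.17 against 9.10 and 9.36 on the other Jak2-9 arrays, 9.14 to 9.29 on the controls and 9.02 to 9.29 with Jak2-10. The log2 difference of -0.32 with Jak2-9 (limma, adjusted p = 0.325) was 0.03 (0.941) without that array.

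**Figure D5:**
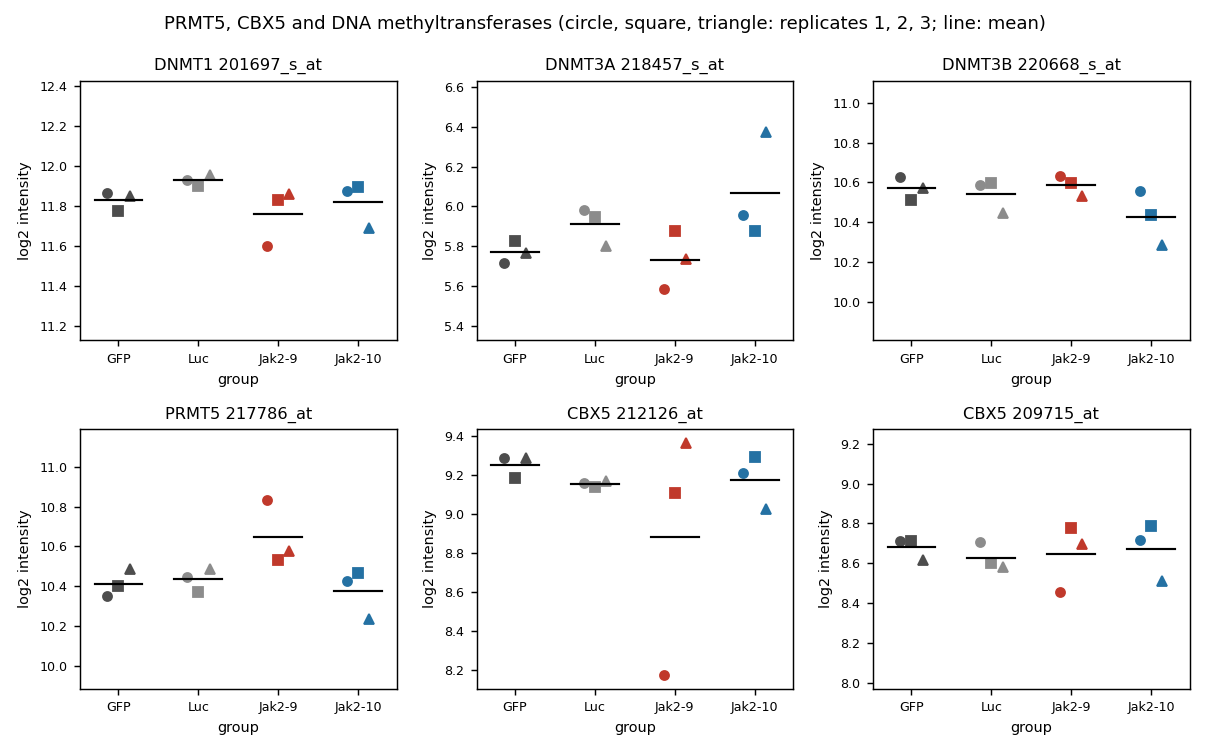
Log2 intensity (vertical axis) of DNMT1, DNMT3A, DNMT3B, PRMT5 and CBX5 probe sets by group, with 1 point per array and the group mean as a line. The 3 Jak2-9 arrays of PRMT5 lie above the controls (10.53 to 10.84), and CBX5 212126_at holds 1 low array, Jak2-9 replicate 1 at 8.17.

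The hairpins were also compared with each other. Jak2-10 minus Jak2-9 called none of the 19 members, and 0% of all 22406 probe sets (limma). At unadjusted p under 0.05, 3 members were higher with Jak2-10, DNMT3A (0.34 ± 0.13, SE), SUZ12 213971_s_at (0.30 ± 0.14) and KMT2A 212078_s_at (0.50 ± 0.22), against 3.02% of all probe sets. PRMT5 was lower (-0.27 ± 0.10), against 5.54% of all. Each of these 4 had an adjusted p of 0.572, and without Jak2-9 replicate 1 the differences were 0.26, 0.11, 0.23 and -0.18. Without Jak2-10 replicate 3 that of DNMT3A was 0.18. Luc minus GFP called none either, and 0% of all probe sets; the members' log2 differences ran from -0.10 to 0.24, and none had an unadjusted p under 0.05, against 0.919% of all probe sets that were lower and 1.58% higher.

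Other genes of the same pathways were taken from 9 lists, of which 113 of 153 genes had a probe set of their own, 214 in all. With both hairpins 6 of these genes fell and 2 rose (limma), through 3.27% and 0.935% of the 214 probe sets, against 2.51% and 0.629% of all. With Jak2-9 8 fell and 3 rose, through 4.21% and 1.4% of the 214 probe sets, against 2.62% and 1.64% of all. With Jak2-10 2 fell and none rose, through 1.4% and 0% of the 214, against 1.29% and 0.0848% of all. The 2 that fell with each hairpin were EZH1 and PHC3. With GFP alone as control, PHC3 (limma, adjusted p = 0.0248) and KDM4B (0.0489) were the genes of these 8 that still passed with both hairpins.

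Among 6 measured PRC2 partners EZH1, the second PRC2 methyltransferase beside EZH2, was the one that fell. At 203249_at control arrays spanned 6.0 to 6.66 and knockdown arrays 5.05 to 5.77 on the log2 scale, without overlap. Such a separation was seen at 2.13% of all probe sets. Mean intensities in the GFP and Luc groups were 75.5 and 89.8 at 203249_at, and 55.8 and 76.5 at 32259_at. With Jak2-9 and Jak2-10 they were 45.3 and 46.6 at 203249_at, and 43.5 and 44.6 at 32259_at. The knockdown means lay near the array medians of 42.8 to 46.4. EZH1 was at 55.6% of control at 203249_at and at 67.4% at 32259_at (limma, adjusted p = 0.00307 and 0.00243), and the dimmer 211310_at was at 106% (0.600). At 203249_at it fell to 55.2% with Jak2-9 (adjusted p = 0.0139; 0.0539 without Jak2-9 replicate 1) and to 56.0% with Jak2-10 (0.0282). The Jak2-10 call was lost without Jak2-10 replicate 1 (0.0633) or 3 (0.219), GFP replicate 1 (0.0547), Luc replicate 1 (0.0578), 2 (0.0502) or 3 (0.0757). The call with both hairpins passed on leaving out each array in turn (adjusted p at most 0.0127) and was lost with GFP alone as control at both EZH1 probe sets (-0.71, 0.0791, and at 32259_at -0.34 in place of -0.57, 0.282).

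Among 15 measured genes of Polycomb repressive complex 1, PHC3, a polyhomeotic subunit, fell to 62.1% at 215521_at (limma, adjusted p = 0.00095) and SCMH1 rose to 130% of control (0.00914; 0.242 with GFP alone as control). PHC3 passed on leaving out each array (adjusted p at most 0.00437), and its other probe set, 220328_at, was at 96.0% (0.840). Both are dim: mean intensities at 215521_at were 40.1 and 43.4 in the GFP and Luc groups, near the array medians of 42.8 to 46.4. They were 23.8 with Jak2-9 and 27.6 with Jak2-10, under those medians. With Jak2-10 PHC3 was at 66.9% (0.0301), and the call was lost without each Jak2-10 or Luc array, with adjusted p up to 0.197. Among 6 partners of ASXL1 and BAP1, OGT, the O-GlcNAc transferase, fell to 69.1% at 207563_s_at (0.00607; 0.121 with GFP alone), with its brightest probe set 209240_at at 83.2% (0.109).

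Among 9 measured genes of the DNA methylation cycle the glycosylases TDG (67.8% at 203742_s_at, limma, adjusted p = 0.0116) and MBD4 (68.5% at 214048_at, 0.00817) fell. Their brightest probe sets, 203743_s_at and 209579_s_at, were at 98.8% (0.933) and 91.4% (0.452). The probe sets that fell were dim, at mean intensities of 60.7 and 60.5 (TDG) and 54.7 and 61.7 (MBD4) in the GFP and Luc groups. The TDG call was lost with GFP alone (0.0770) or Luc alone (0.0535) as control, and the MBD4 call with GFP alone (0.151). Of 11 measured PRMT family members and PRMT5 partners, PRMT2 fell at 216069_at (73.6%, 0.0112) with its brightest probe set at 115% (0.305). Probe set 216069_at was dim, at mean intensities of 26.05 and 34.98 in the GFP and Luc groups. Its means were 21.16 with Jak2-9 and 23.56 with Jak2-10, and each of these means lay under the array medians of 42.8 to 46.4. With GFP alone as control the log2 difference of PRMT2 was -0.23 in place of -0.44 (0.493). In Jak2-9 cells SNRPB, a spliceosomal protein that PRMT5 methylates, rose to 130% at 208821_at (0.0342). That call was lost on leaving out 9 of the 12 arrays in turn, with adjusted p up to 0.139 without Jak2-9 replicate 1 (log2 difference 0.25 in place of 0.38). The brightest SNRPB probe set, 213175_s_at, did not pass, with log2 means of 12.07 with Jak2-9 and 11.80 in controls.

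Among 16 measured HP1 and heterochromatin genes the demethylase KDM4B rose to 123% at 212495_at with both hairpins (limma, adjusted p = 0.0495). That call was lost on leaving out 10 of the 12 arrays (adjusted p up to 0.141). With Luc alone as control it was lost too (log2 difference 0.19 in place of 0.30, 0.441). The brightest KDM4B probe set, 212496_s_at, did not pass, with log2 means of 8.04 in knockdown and 7.77 in control arrays. ATRX, a heterochromatin remodeller, fell to 57.1% at 208859_s_at with Jak2-9 (0.0217). That call was lost without Jak2-9 replicate 1 (0.0862) or Luc replicate 2 (0.0542), and with GFP alone (0.0563) or Luc alone (0.0779) as control. No other ATRX probe set passed. The brightest, 208861_s_at, had log2 means of 7.22 with Jak2-9 and 7.72 in controls. Of 16 further myeloid chromatin and cohesin genes, SMC3, a cohesin subunit, fell to 63.2% at 209258_s_at with Jak2-9 (0.0421). That call was lost on leaving out 8 of the 12 arrays, with adjusted p up to 0.166. The highest came without Jak2-9 replicate 1, where the log2 difference was -0.40 in place of -0.66. The brightest SMC3 probe set, 209257_s_at, did not pass, with log2 means of 8.90 with Jak2-9 and 9.50 in controls. None of 24 measured genes listed with the KMT2 complexes passed. The lowest p belonged to KMT2B (log2 difference 0.20 at 217069_at, limma, adjusted p = 0.201) and DOT1L (0.21 at 214865_at, 0.225). Both probe sets were dim, at mean intensities of 18.9 to 23.9 in the 4 groups. The brightest KMT2B probe set, 203419_at, went the other way, at -0.15. None of 10 measured genes reported as targets of the members passed, with CDKN2A at a log2 difference of 0.17 (0.225) and the KMT2A target MEIS1 at -0.17 (0.363). That CDKN2A probe set, 211156_at, was dim, at mean intensities of 50.8 to 62.2 in the 4 groups. Its log2 means were 5.96 with Jak2-9, 5.73 with Jak2-10 and 5.67 in controls. The dimmer CDKN2A probe sets 209644_x_at and 207039_at were at 0.06 and 0.04.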

How the data were processed

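Each of 12 single-colour Affymetrix arrays, 3 in each of 4 groups, read total RNA (Trizol) of which 20 ng was amplified with a NuGEN kit, per the labels' protocols. The authors deposited linear-scale intensity values per probe set, made with RMA per the submitters' processing notes (version not given in the sources used here). Quantile normalization, which RMA includes, can compress differences of dim probe sets. Log2 was taken with no pseudocount, 524 of 22930 probe sets were left out as controls, and each other probe set was tested with 4 group means (limma 3.58.1, R 4.3.3), Benjamini-Hochberg over 22406, threshold 0.05; the fit was tested on simulated data. Probe set pairs were compared with exact permutation tests over 924 arrangements. No sequencing depth exists; the number of arrays limits the precision. The members and lists were chosen with earlier results of these data known. Named were all members, JAK2, and, of each other list, up to 4 genes past the threshold by size of change, or the 2 with the lowest p. Coordinates other than those of promoters are not given, since no build is named.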

Additional observations from a re-analysis of the deposited data

How the results depend on the processing

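The number of arrays and dim signals limit these results: 3 arrays a group, no detection calls, and 1 array, Jak2-9 replicate 1, that stood apart. With both hairpins together, JAK2 at 205842_s_at passed under each alternative run and on leaving out each array (log2 difference -0.74 to -0.55, adjusted p at most 0.0315). With both hairpins the count of member probe sets called, 1, became 2 with quantile normalization, 3 with array weights, 0 with GFP alone as control and 0 of 10 genes with the brightest probe set per gene; leaving out 1 array gave 0 to 3. With Jak2-9 the count of 2 became 1 with 16 added before log2 or with the mean of the probe sets of a gene, and 0 with the brightest probe set per gene, GFP alone or only the arrays compared; leaving out 1 array gave 0 to 5. The causes were not tested. With Jak2-10 it was 1 in place of 0 with array weights, and leaving out 1 array gave 0 to 1. The probe set pairs that differed numbered 0 to 1 on leaving out 1 array (SUZ12, without GFP replicate 3, adjusted p = 0.0390). Over all probe sets the calls with both hairpins, 704, became 277 with GFP alone and 1209 with array weights, and 218 or 283 of 11940 genes with the brightest or the mean of the probe sets. With Jak2-9 956 became 321 with GFP alone, 637 with Luc alone, 593 with only the arrays compared, 1436 after centring, 367 or 507 by gene, and 490 to 2020 on leaving out 1 array. With Jak2-10 308 became 73 with GFP alone, 591 with array weights, 82 or 92 by gene, and 128 to 491 on leaving out 1 array.

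With the replicate number as a block (replicate block) the counts stayed 1 with both hairpins and 2 with Jak2-9. Correlations of deviations between same-numbered arrays ran from -0.14 to 0.19 (median 0.05, over 0.1 in 4 of 18 pairs). Between arrays of other numbers they ran from -0.18 to 0.17 (median -0.03, over 0.1 in 5 of 36 pairs). Of the 12 arrays 7 correlated best with their own number, and whether a shared number marks shared handling was not tested. The block ended the call of KDM4B with both hairpins and no other call named. With the 4 constructs as a random block the consensus correlation was -0.0445 and the count was 1.

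Values near 0 changed sign. EED 209572_s_at was 0.0092 with both hairpins after median centring, -0.0464 to 0.0141 on leaving out arrays, and -0.0320 with Jak2-9 for the mean of its probe sets. EED 210656_at with Jak2-10 ran from -0.1055 to 0.0027, and its gap to 209572_s_at from -0.0874 to 0.0034. DNMT3B with Jak2-9 was -0.0015 after quantile normalization. DNMT1 with Jak2-10 ran from -0.0974 to 0.0047 and PRMT5 with Jak2-10 from -0.0929 to 0.0207. DNMT3A with both hairpins was -0.0093 against Luc alone and ran from -0.0150 to 0.1088.

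CBX5 209715_at was 0.0261 with Jak2-9 after median centring, 0.0800 with array weights and 0.0156 against Luc alone (-0.0768 to 0.0838 on leaving out arrays). With both hairpins it was -0.0045 after quantile normalization and -0.0214 against GFP alone (-0.0298 to 0.0505), and with Jak2-10 -0.0080 against GFP alone (-0.0397 to 0.0963). CBX5 212126_at with Jak2-10 was 0.0168 with array weights and 0.0197 against Luc alone (-0.0865 to 0.0469). It ran from -0.5634 to 0.0303 with Jak2-9 and from -0.2961 to 0.0008 with both hairpins. KMT2A 216624_s_at with Jak2-9 was 0.0591 with array weights (-0.5989 to 0.1636). The gaps of KMT2A 212078_s_at and 212079_s_at to 212076_at ran from -0.0812 to 0.1621 and from -0.0322 to 0.1553, and that of ASXL1 212234_at to 212238_at from -0.0605 to 0.0169. With the brightest probe set per gene PRMT2 was 0.2006 with both hairpins and 0.2795 with Jak2-9, and KMT2B was -0.1523.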
